A study of Homo sapiens with 16 samples.

Results

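Open chromatin was described at 56 loci of genes that build, anchor and turn over the extracellular matrix of fibroblasts: collagens, elastic fibre proteins, adhesive glycoproteins, proteoglycans, contractile and surface proteins of matrix-producing cells, and matrix proteases. The rule that names the 56 genes uses no measured value, but the list was drawn up with earlier results of these data known. A locus was the hg38 gene body with 10 kb on each side, and these 56 loci were compared with 19974 protein-coding loci on the autosomes and chromosome X. The value of a locus in a library was the number of distinct ATAC-seq peaks whose summit lies in it, scaled to that library's total over all protein-coding loci, so that 1 scaled peak is close to 1 listed peak. Of the 56 members, 54 reached a mean of at least 3 scaled peaks over the 16 libraries and were tested, as were 15118 loci in all. MFAP5 and POSTN fell below that mean.

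ATAC-seq finds accessible DNA as the places where the Tn5 transposase can cut and tag it. It was done on IMR90 cells, an established line of human lung fibroblasts, infected with a retrovirus that encodes ΔB-RAF:ER, a B-RAF kinase fused to the hormone-binding part of the estrogen receptor, which 4-hydroxytamoxifen (4-OHT) switches on. Activated Raf drives such fibroblasts into oncogene-induced senescence (OIS), and the question was how low oxygen affects chromatin accessibility in that state. There were 4 groups of 4 libraries: Raf-inactive cells in normoxia, Raf-active cells in normoxia, Raf-inactive cells in hypoxia at 0.5% oxygen and Raf-active cells in hypoxia at 0.5% oxygen. All groups are IMR90, and the labels name the virus and 4-OHT for every library without saying how long either treatment lasted or what the Raf-inactive cells received. Every library comes from 1 line, and nothing in the labels says that the 4 replicates are separate cultures, so the p-values rest on library-to-library spread that may be only technical.

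The lists held 176955 ± 1900 distinct peaks in Raf-inactive normoxia, 199560 ± 6372 in Raf-active normoxia, 172688 ± 2439 in Raf-inactive hypoxia and 201539 ± 3829 in Raf-active hypoxia (mean ± SD, n = 4). Read totals are not stated in the files. The background pileup recovered from each list, which follows depth, ranged from 3.01 to 3.50 in Raf-inactive normoxia, 6.09 to 7.10 in Raf-active normoxia, 4.61 to 5.02 in Raf-inactive hypoxia and 6.53 to 8.34 in Raf-active hypoxia. Depth and list length moved with Raf, and in Raf-inactive cells background pileup was also higher in hypoxia than in normoxia, without overlap. Values without scaling and at matched depth are therefore given beside the results. Matched depth means that each peak's pileup, recovered from its fold and p-value, was thinned to the library of lowest background and the peak kept where it still passed.

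Fibrillar collagens assemble into the tension-bearing fibres of connective tissue, fibrillins and elastin form the elastic fibres that let lung tissue recoil, and network and fibril-associated collagens link these fibres to cells and to basement membranes. Resident fibroblasts make most of this matrix, and when they turn into myofibroblasts they also build contractile fibres from smooth muscle actin. Senescent fibroblasts are known for a secretory state that includes matrix-degrading enzymes. An open region at a gene marks a promoter or a possible regulatory element there and is no measure of the gene's transcript.

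Member loci carried open chromatin in every group, with peak densities from 2.24 scaled peaks per 100 kb of locus at COL11A1 and 3.38 at POSTN to 32.2 at SPARC and 32.8 at S100A4 (mean of 16 libraries). SPARC encodes a collagen-binding glycoprotein, and S100A4 a calcium-binding protein used as a fibroblast marker. The fibroblast label was checked on 7 lung fibroblast transcription factor genes, none of which was without peaks in any library. Their summed scaled peaks ranged from 62.6 to 67.1 in Raf-inactive normoxia, 60.6 to 66.4 in Raf-active normoxia, 66.5 to 79.5 in Raf-inactive hypoxia and 62.0 to 69.0 in Raf-active hypoxia. Loci of marker genes of other cell types held peaks too, and no marker gene on the lists used was at 0 in all 16 libraries, so peak numbers do not separate cell types here. The 12 epithelial markers summed to 52.9 to 56.7 and 64.2 to 68.9 scaled peaks in the Raf-inactive and Raf-active normoxia libraries, and to 53.6 to 57.1 and 69.2 to 73.1 in the hypoxia libraries. Whether other cells contributed to the member values was not tested.

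With Raf active, 17 of 54 tested members (31.5%) held fewer peaks in both oxygen states, where 19% of all tested loci did (limma, adjusted p below 0.05). They included the fibrillar collagen genes COL11A1, COL1A2, COL3A1 and COL5A2, both fibrillin genes FBN1 and FBN2, and VCAN, ACTA2 and MMP14. A set of 6 members (11.1%) was higher in both, COL5A1, COL6A3, ELN, EFEMP2, MFAP2 and TAGLN, where 25.1% of all tested loci were. THBS2, CNN1 and PDGFRB were called higher in normoxia and COL16A1 in hypoxia. Another 12 members passed as lower in hypoxia and not in normoxia, and the test of the difference passed for 5 of them: COL1A1, LUM, FAP, TNC and LTBP2. In neither oxygen state were 15 members called. Among all tested loci 26.6% were lower in hypoxia and 19% lower in both oxygen states. The shares of all tested loci lower in hypoxia alone, or called in neither, were not counted.

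In normoxia 9 of 54 tested members (16.7%) were higher and 17 (31.5%) lower with Raf active, where 37.1% of all tested loci were higher and 25.9% lower, 63% in all. In hypoxia the share of all tested loci called either way was 60.1%. Groups of libraries did not overlap at 56.9% of all tested loci in normoxia and 56.2% in hypoxia, which is the background for each statement below that a pair of groups was apart. The median log2 change was -0.02 over the members and 0.10 over all tested loci. In hypoxia 7 members (13.0%) were higher and 29 (53.7%) lower, against 33.5% and 26.6% of all tested loci, with a median of -0.20 over the members and 0.05 over all. No test of these shares against the background was made. Without scaling, the median of all loci was 0.33 in normoxia and 0.29 in hypoxia, and that of the members was 0.21 and 0.06, below that of all loci in both cases. The unscaled fit called 29 members higher and 14 lower in normoxia and 20 higher and 14 lower in hypoxia. The shares of all tested loci called each way in that fit are not given, so these counts have no background beside them. Among all called loci the higher share moved from 58.9% to 77.6% in normoxia and from 55.7% to 78.4% in hypoxia when the scaling was dropped.

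Of the 17 members lower in normoxia, 13 were lower both without scaling and at matched depth: COL1A2, COL3A1, COL5A2, COL11A1, COL12A1, COL14A1, FBN1, FBN2, EFEMP1, DCN, VCAN, ACTA2 and MMP14. The remaining 4 were COL8A1, CCN2, VIM and MMP2. Of the 29 members lower in hypoxia, 14 were lower in both of those fits. These were COL1A2, COL3A1, COL5A2, COL11A1, COL12A1, FBN1, FBN2, TNC, LUM, VCAN, ACTA2, VIM, FAP and MMP14. All 9 members higher in normoxia, and 6 of the 7 higher in hypoxia, were higher in both fits as well; COL6A3 in hypoxia was the exception. With only peaks enriched 5-fold or more, fewer of the same members passed: 3 of the 9 higher and 9 of the 17 lower in normoxia, and 3 of the 7 higher and 15 of the 29 lower in hypoxia.

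**Figure D1:**
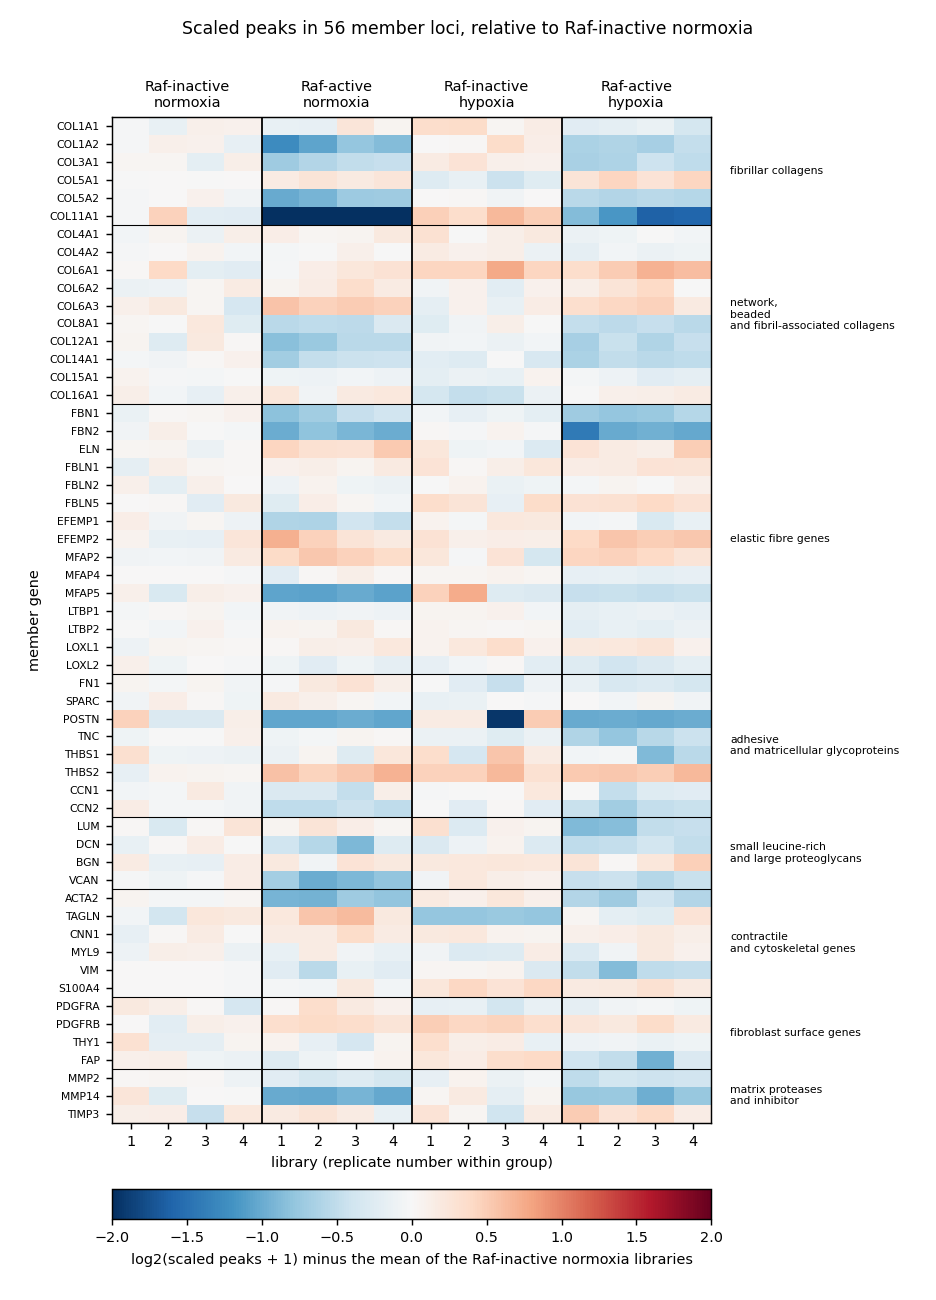
Scaled peaks of the 56 member loci (rows, by role) in the 16 libraries (columns, by group), as log2(scaled peaks + 1) minus the mean of the Raf-inactive normoxia libraries; blue is lower, red higher, and values beyond the ends of the scale take the end colour. COL1A2, COL11A1, FBN2, VCAN, ACTA2 and MMP14 are blue in all 8 Raf-active libraries, and LUM, FAP and TNC are blue in the 4 Raf-active hypoxia libraries.

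**Figure D2:**
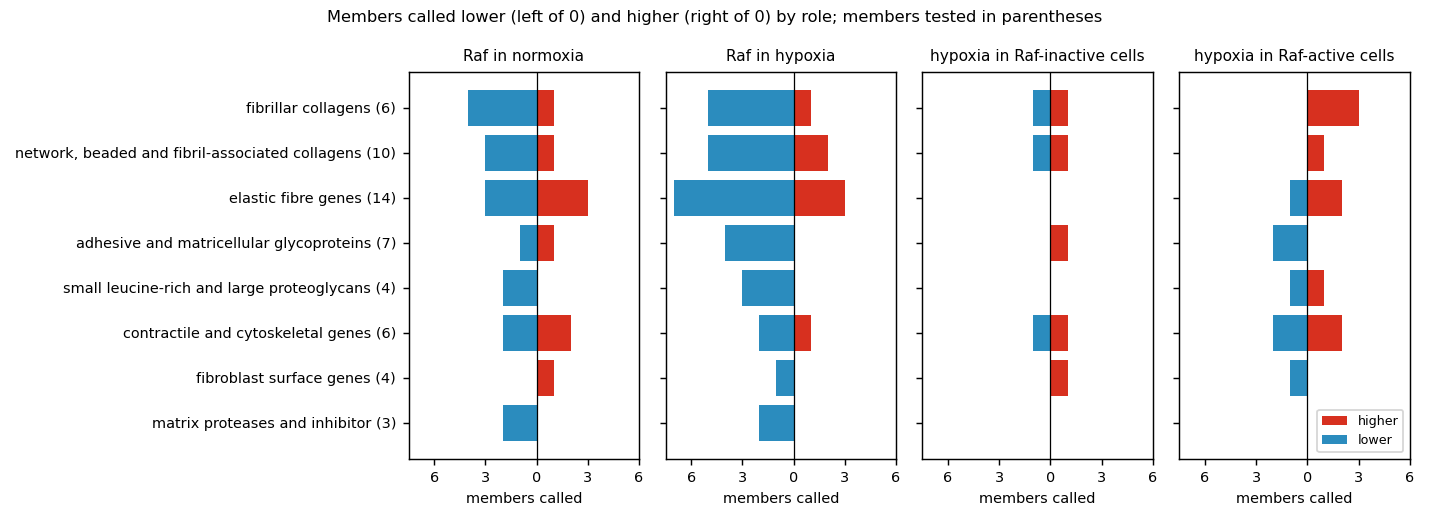
Members called lower (bars left of 0) and higher (bars right of 0) by limma in each comparison, by role, with the number tested in parentheses. Fibrillar collagens and elastic fibre genes are 6 and 14 of the 54 tested members. With Raf, 66.7% of the fibrillar collagens were lower in normoxia and 83.3% in hypoxia. For the elastic fibre genes the shares were 21.4% and 50%. Of all 54 members 31.5% and 53.7% were lower, and of all tested loci 25.9% and 26.6%.

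Among the 6 fibrillar collagen genes, 4 were lower and 1 was higher with Raf active in normoxia, and 5 were lower and 1 was higher in hypoxia. COL11A1 (chr1:102876473-103108522) encodes a chain of collagen XI, a minor fibrillar collagen that helps set fibril diameter. It held 7.56, 10.9, 6.49 and 6.39 scaled peaks in the Raf-inactive normoxia libraries and 0.892, 0.883, 0.949 and 0.885 in the Raf-active ones. In hypoxia the values were 11.1, 10.1, 12.6 and 11.2 without and 3.73, 2.85, 1.82 and 1.88 with active Raf. All 8 Raf-active libraries lay below all 8 Raf-inactive libraries, and each Raf-active normoxia library had a single listed peak in the locus. With Raf active the log2 change was -2.19 ± 0.16 (SE; limma, adjusted p = 4.23e-09) in normoxia and -1.81 ± 0.16 (adjusted p = 6.14e-08) in hypoxia. The start of COL11A1 was rarely open: a peak lay within 500 bases of it in 1 of 4 libraries of each Raf-inactive group and in none of the 8 Raf-active libraries. Its promoter, from 250 bases before to 50 after the annotated start (chr1:103108473-103108772, minus strand, GRCh38.p14, sequence from RefSeq), is shown because the locus had the largest change of all members; it held none of the motifs searched.
COL11A1 promoter: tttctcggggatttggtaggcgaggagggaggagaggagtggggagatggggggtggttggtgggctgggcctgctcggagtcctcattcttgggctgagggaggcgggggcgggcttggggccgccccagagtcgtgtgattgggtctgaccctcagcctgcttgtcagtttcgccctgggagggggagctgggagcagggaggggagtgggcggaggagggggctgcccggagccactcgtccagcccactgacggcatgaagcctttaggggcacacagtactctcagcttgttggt

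COL1A1 and COL1A2 encode the chains of collagen I, the main collagen of lung matrix. COL1A2 (chr7:94394895-94431227) held 11.9, 13.1, 13.0 and 10.7 scaled peaks in Raf-inactive normoxia and 4.46, 5.30, 6.64 and 6.19 in Raf-active normoxia. With low oxygen the values were 12.2, 12.3, 15.98 and 13.4 without and 7.46, 7.60, 7.29 and 8.45 with active Raf. The groups did not overlap in either oxygen state, and the log2 change was -0.99 ± 0.11 (limma, adjusted p = 6.45e-07) in normoxia and -0.73 ± 0.11 (adjusted p = 2.23e-05) in hypoxia. Among peaks enriched 5-fold or more the COL1A2 change no longer passed, at -0.15 and -0.23.

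COL1A1 (chr17:50184101-50201631) differed from its partner chain in normoxia, with 10.8, 9.81, 11.9 and 11.7 scaled peaks without and 9.81, 9.71, 13.3 and 11.5 with active Raf. These groups overlapped and their means were 11.1 and 11.1. In hypoxia the 4 values were 14.4, 14.5, 11.4 and 12.3 without and 9.32, 9.50, 10.0 and 8.45 with active Raf, with no overlap and a log2 change of -0.45 ± 0.10 (limma, adjusted p = 0.0012). The normoxia value was higher in other settings, with 0.23 unscaled and 0.30 at matched depth, and the hypoxia call ended unscaled, at -0.21.

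COL3A1 and COL5A2 stand next to each other on chromosome 2 and their loci overlap, so some peaks counted in both. COL3A1 (chr2:188974373-189012746), the gene of collagen III, held 14.0, 14.2, 11.9 and 14.9 scaled peaks in Raf-inactive normoxia and 8.03, 8.83, 9.49 and 9.73 in Raf-active normoxia. Its hypoxia values were 15.5, 16.8, 14.8 and 14.6 without and 8.39, 8.55, 10.0 and 9.39 with active Raf. Both pairs of groups were apart, by log2 changes of -0.56 ± 0.09 (limma, adjusted p = 2.61e-05) and -0.70 ± 0.09 (adjusted p = 2.46e-06). The normoxia fall ended when the gene body alone was counted (-0.09) and turned to 0.33 among peaks enriched 5-fold or more. COL5A2, which encodes a chain of collagen V, fell from a mean of 74.8 to 41.3 scaled peaks in normoxia and from 74.3 to 50.4 in hypoxia (log2 changes -0.85 and -0.55).

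COL5A1 (chr9:134641803-134844843), the partner of COL5A2 in collagen V, moved the other way. It held 35.6, 36.0, 35.7 and 36.2 scaled peaks in Raf-inactive normoxia and 40.1, 43.2, 40.8 and 42.5 in Raf-active normoxia. With hypoxia the values were 29.9, 32.4, 26.2 and 30.2 without and 42.9, 48.4, 43.7 and 48.8 with active Raf. Every Raf-active library was above every Raf-inactive one. This gave a log2 change of 0.21 ± 0.07 (limma, adjusted p = 0.019) in normoxia and 0.61 ± 0.07 (adjusted p = 1.98e-06) in hypoxia, and the hypoxia value fell to 0.17 and did not pass among peaks enriched 5-fold or more.

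**Figure D3:**
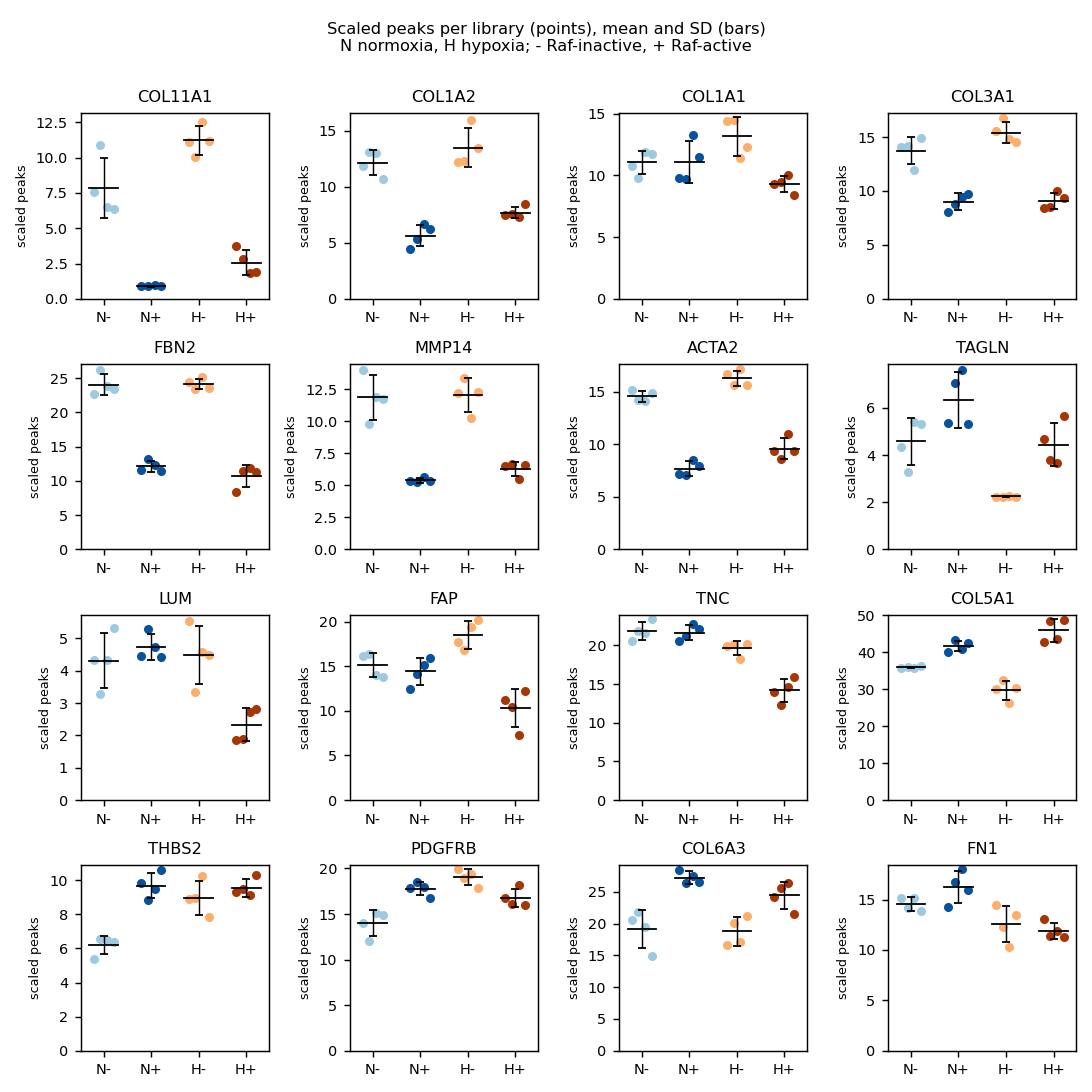
Scaled peaks in each library (points) with the mean and SD (bars) of each group of 4, for 16 members; N and H are normoxia and hypoxia, - and + are Raf-inactive and Raf-active. COL11A1, COL1A2, COL3A1, FBN2, MMP14 and ACTA2 are lower in both Raf-active groups, COL5A1 and COL6A3 higher, and LUM, FAP and TNC lower in the Raf-active hypoxia group.

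Of the 10 network, beaded and fibril-associated collagen genes, 3 were lower and 1 was higher with Raf active in normoxia, and 5 were lower and 2 were higher in hypoxia. COL8A1, COL12A1 and COL14A1 were lower in both. COL12A1, whose product coats collagen I fibrils, went from a mean of 20.0 to 12.2 scaled peaks in normoxia and from 18.8 to 13.3 in hypoxia, with log2 changes of -0.67 and -0.47. COL14A1, the gene of a related fibril-associated collagen, went from 31.0 to 21.6 and from 26.9 to 21.0, and COL8A1, the gene of a short-chain network collagen, from 31.9 to 22.7 and from 30.6 to 22.1. The basement membrane genes COL4A1 and COL4A2, which start head to head and share peaks, were lower in hypoxia by -0.22 and -0.17, with overlapping groups, and were not called in normoxia. The difference between the oxygen states did not pass (limma, adjusted p = 0.0571 and 0.218).

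COL6A3 (chr2:237324018-237414164) encodes the longest chain of collagen VI, which forms beaded filaments around cells. It held 20.5, 21.8, 19.5 and 14.9 scaled peaks in Raf-inactive normoxia and 28.5, 26.5, 27.5 and 26.5 in Raf-active normoxia. The hypoxia libraries had 16.6, 20.1, 17.1 and 21.3 without and 24.2, 25.6, 26.4 and 21.6 with active Raf. Neither pair overlapped, and the log2 change was 0.50 ± 0.11 (limma, adjusted p = 0.000699) and 0.37 ± 0.11 (adjusted p = 0.00739). Among peaks enriched 5-fold or more the direction turned, to -0.40 in normoxia and -0.73 in hypoxia, and at matched depth the hypoxia value was 0.27 and did not pass.

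COL16A1 (chr1:31652263-31704017), the gene of another fibril-associated collagen, held 17.3, 15.3, 14.1 and 17.0 scaled peaks in Raf-inactive and 18.7, 15.0, 18.0 and 18.6 in Raf-active normoxia. The hypoxia libraries held 12.2, 11.2, 11.4 and 14.6 without and 15.8, 17.1, 17.3 and 17.8 with active Raf. Only the hypoxia groups were apart, with a log2 change of 0.44 ± 0.09 (limma, adjusted p = 0.000749) against 0.14 ± 0.09 (adjusted p = 0.223) in normoxia. The difference between these changes did not pass its own test (adjusted p = 0.124). COL6A1, COL6A2 and COL15A1 were called in neither oxygen state.

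Elastic fibre genes split. Of 14 tested, 3 were lower and 3 higher with Raf active in normoxia, and 7 were lower and 3 higher in hypoxia. The fibrillin genes FBN1 and FBN2, whose products form the microfibril scaffold, were lower in both, while ELN (elastin), MFAP2 (a microfibril-associated glycoprotein) and EFEMP2 (fibulin-4, needed for elastic fibre assembly) were higher in both. FBN2 (chr5:128257909-128538245) held 22.7, 26.2, 23.8 and 23.4 scaled peaks in Raf-inactive normoxia and 11.6, 13.2, 12.3 and 11.5 in Raf-active normoxia. At low oxygen the locus held 24.4, 23.5, 25.1 and 23.5 without and 8.39, 11.4, 11.8 and 11.3 with active Raf. The Raf-active libraries lay at about the same low level in both oxygen states, apart from all Raf-inactive ones. The log2 changes were -0.93 ± 0.09 (limma, adjusted p = 1.88e-07) and -1.11 ± 0.09 (adjusted p = 3.03e-08). FBN1 went from a mean of 46.4 to 30.7 in normoxia and from 42.4 to 28.2 in hypoxia, by -0.59 and -0.57.

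MFAP2 (chr1:16974502-16981583) held 4.32, 4.36, 4.33 and 5.32 scaled peaks in Raf-inactive and 6.24, 7.06, 6.64 and 6.19 in Raf-active normoxia. In hypoxia it held 5.55, 4.47, 5.71 and 3.36 without and 6.53, 6.65, 6.38 and 5.63 with active Raf. The normoxia groups were apart, and in hypoxia 1 Raf-active library lay below the highest Raf-inactive one. The log2 change was 0.43 ± 0.11 (limma, adjusted p = 0.00318) in normoxia and 0.36 ± 0.11 (adjusted p = 0.0124) in hypoxia. Among peaks enriched 5-fold or more the normoxia rise was 0.10 and did not pass. A peak lay at the upstream start of MFAP2 in all 16 libraries, and its promoter (chr1:16981534-16981833, minus strand) is shown because it was the only printed window with more than 1 match to the AP-1 motif TGANTCA, at -145 and -60 from the annotated start at 0; capitals mark the matches. AP-1 is the family of FOS and JUN factors that acts downstream of Raf and ERK signalling.
MFAP2 promoter: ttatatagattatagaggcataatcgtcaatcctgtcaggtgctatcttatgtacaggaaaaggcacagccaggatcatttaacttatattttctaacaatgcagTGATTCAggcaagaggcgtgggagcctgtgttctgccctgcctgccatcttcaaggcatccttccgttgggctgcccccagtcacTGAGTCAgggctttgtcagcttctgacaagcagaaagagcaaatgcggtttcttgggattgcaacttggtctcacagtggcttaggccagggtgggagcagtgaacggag

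EFEMP2 (chr11:65866441-65872800) held 6.48, 5.45, 5.41 and 7.45 scaled peaks in Raf-inactive and 10.7, 8.83, 7.59 and 7.08 in Raf-active normoxia. Its hypoxia values were 7.76, 6.71, 6.85 and 6.72 without and 8.39, 9.50, 9.11 and 9.39 with active Raf. The groups overlapped in normoxia and were apart in hypoxia, with log2 changes of 0.40 ± 0.11 (limma, adjusted p = 0.00466) and 0.33 ± 0.11 (adjusted p = 0.0156). The EFEMP2 locus overlaps 7 other protein-coding loci, so its peaks are shared. ELN went from a mean of 8.36 to 11.2 and from 8.13 to 10.3 scaled peaks, by 0.39 and 0.31.

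EFEMP1 (chr2:55865967-55923782) encodes fibulin-3, a relative of fibulin-4. It held 14.0, 11.99, 13.0 and 11.7 scaled peaks in Raf-inactive normoxia and 8.03, 7.94, 9.49 and 8.85 in Raf-active normoxia, and the groups were apart. Its hypoxia values were 13.3, 12.3, 14.8 and 14.6 without and 12.1, 12.3, 10.0 and 11.3 with active Raf, where the groups met. With Raf active the log2 change was -0.51 ± 0.09 (limma, adjusted p = 7.81e-05) in normoxia and -0.25 ± 0.09 (adjusted p = 0.0226) in hypoxia. MFAP4, LTBP1, LTBP2 and LOXL2 were lower in hypoxia by -0.21, -0.19, -0.21 and -0.18 and were not called in normoxia. The difference between the oxygen states passed for LTBP2 and not for MFAP4, LTBP1 or LOXL2 (limma, adjusted p = 0.166, 0.416 and 0.861). The latent TGF-beta binding proteins LTBP1 and LTBP2 sit on microfibrils, and LOXL2 cross-links collagen. FBLN1, FBLN2, FBLN5 and LOXL1 were called in neither comparison. MFAP5, which was not tested, had means of 2.97 and 0.902 scaled peaks in Raf-inactive and Raf-active normoxia and 3.64 and 1.87 in hypoxia.

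Of 7 tested adhesive and matricellular genes, 1 was lower and 1 higher with Raf active in normoxia, and 4 were lower and none higher in hypoxia. FN1 (chr2:215360865-215436068) encodes fibronectin, which connects collagen to integrins. It held 15.1, 14.2, 15.2 and 13.8 scaled peaks in Raf-inactive and 14.3, 16.8, 18.0 and 15.9 in Raf-active normoxia. The hypoxia libraries held 14.4, 12.3, 10.3 and 13.4 without and 13.1, 11.4, 11.8 and 11.3 with active Raf. Both pairs of groups overlapped, and the log2 changes of 0.14 ± 0.09 and -0.07 ± 0.09 did not pass (limma, adjusted p = 0.195 and 0.538). With 50 kb on each side the normoxia value turned to -0.27 and passed.

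CCN2 (chr6:131948176-131951372) encodes connective tissue growth factor, a matricellular protein and a known target of YAP and TEAD factors. It held 7.56, 6.54, 6.49 and 6.39 scaled peaks in Raf-inactive and 4.46, 4.41, 4.74 and 4.42 in Raf-active normoxia. At low oxygen the locus held 6.66, 5.59, 6.85 and 5.60 without and 4.66, 3.80, 4.55 and 4.69 with active Raf. The groups were apart, at 6 or 7 listed peaks against 5 in normoxia, with log2 changes of -0.49 ± 0.08 (limma, adjusted p = 7.05e-05) and -0.40 ± 0.08 (adjusted p = 0.000508). The normoxia fall was -0.23 and did not pass at matched depth, the hypoxia fall was -0.18 and did not pass unscaled, and among peaks enriched 5-fold or more the values were 0.10 and 0.18. All 16 libraries had a peak at the start of CCN2. Its promoter (chr6:131951323-131951622, minus strand) is shown because it held 3 matches to the TEAD motif GGAATG, in capitals, at -169, -104 and -95, more than any other member window.
CCN2 promoter: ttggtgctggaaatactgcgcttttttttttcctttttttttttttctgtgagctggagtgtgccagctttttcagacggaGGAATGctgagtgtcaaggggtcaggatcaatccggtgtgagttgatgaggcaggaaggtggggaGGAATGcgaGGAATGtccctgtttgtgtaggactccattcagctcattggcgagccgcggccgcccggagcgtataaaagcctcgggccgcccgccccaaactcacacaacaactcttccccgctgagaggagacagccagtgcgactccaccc

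THBS1 and THBS2 encode thrombospondins, which bind matrix and activate or restrain growth factors. THBS2 (chr6:169215785-169253846) held 5.40, 6.54, 6.49 and 6.39 scaled peaks in Raf-inactive and 9.81, 8.83, 9.49 and 10.6 in Raf-active normoxia. In hypoxia it held 8.87, 8.94, 10.3 and 7.83 without and 9.32, 9.50, 9.11 and 10.3 with active Raf. The Raf-inactive normoxia libraries were the low ones, below all other 12. This gave a log2 change of 0.57 ± 0.09 (limma, adjusted p = 2.09e-05) in normoxia and 0.09 ± 0.09 (adjusted p = 0.398) in hypoxia. With 50 kb on each side the normoxia value was 0.02.

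THBS1 (chr15:39581079-39599466) held 7.56, 5.45, 5.41 and 5.32 scaled peaks in Raf-inactive and 5.35, 6.18, 4.74 and 7.08 in Raf-active normoxia. Its hypoxia values were 7.76, 4.47, 9.13 and 6.72 without and 5.59, 5.70, 2.73 and 3.75 with active Raf. Both pairs overlapped, with log2 changes of -0.02 ± 0.20 (limma, adjusted p = 0.933) and -0.56 ± 0.20 (adjusted p = 0.0201). The hypoxia call ended unscaled (-0.34), at matched depth (-0.29) and without any 1 of 4 libraries: Raf-inactive hypoxia replicate 1 (-0.51) or 3 (-0.44), or Raf-active hypoxia replicate 3 (-0.40) or 4 (-0.51). Counted in the gene body alone, the normoxia value was 0.52.

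TNC (chr9:115019575-115118157) encodes tenascin-C, a glycoprotein of remodelling matrix. It held 20.5, 21.8, 21.6 and 23.4 scaled peaks in Raf-inactive and 20.5, 21.2, 22.8 and 22.1 in Raf-active normoxia. The hypoxia libraries held 20.0, 20.1, 18.3 and 20.1 without and 14.0, 12.3, 14.6 and 15.96 with active Raf. The Raf-active hypoxia libraries lay below all other 12. The log2 change was -0.01 ± 0.08 (limma, adjusted p = 0.896) in normoxia and -0.44 ± 0.08 (adjusted p = 0.000116) in hypoxia. CCN1, a relative of CCN2, was lower in hypoxia by -0.29, and SPARC was called in neither comparison. POSTN (periostin), which was not tested, had means of 2.97 and 0.902 scaled peaks in Raf-inactive and Raf-active normoxia and 2.79 and 0.933 in hypoxia, and no library had a peak at its start.

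No proteoglycan gene was higher with Raf active, and 2 of 4 were lower in normoxia and 3 in hypoxia. VCAN, the gene of the large proteoglycan versican, went from a mean of 22.1 to 11.9 scaled peaks in normoxia and from 23.6 to 15.6 in hypoxia, by -0.84 ± 0.08 and -0.56 ± 0.08. DCN, the gene of decorin, which binds collagen fibrils, went from 9.71 to 6.50 and from 8.70 to 6.76, by -0.53 and -0.32. BGN (biglycan) was called in neither. LUM (chr12:91102629-91111494) encodes lumican, a relative of decorin. It held 4.32, 3.27, 4.33 and 5.32 scaled peaks in Raf-inactive and 4.46, 5.30, 4.74 and 4.42 in Raf-active normoxia. At low oxygen the locus held 5.55, 3.35, 4.57 and 4.48 without and 1.86, 1.90, 2.73 and 2.82 with active Raf. Those last 4 libraries, with 2 or 3 listed peaks each, lay below the other 12. With Raf active the log2 change was 0.12 ± 0.14 (limma, adjusted p = 0.449) in normoxia and -0.72 ± 0.14 (adjusted p = 0.000232) in hypoxia.

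A peak lay at the start of VCAN in 2 of 4 Raf-inactive normoxia libraries and in all 12 others. The Raf-inactive normoxia libraries also had the lowest background pileup, and its part was not tested. Where the VCAN start had a peak, that peak ranked higher by −log10 p within its list when Raf was active. Its mean percentile went from 33.0, over the 2 libraries with a peak, to 71.2 in normoxia. In hypoxia it went from 38.8 to 76.3. These ranks were not tested, and their direction was opposite to the fall in peak number over the whole locus. The VCAN promoter (chr5:83471494-83471793, plus strand), shown because its peak varied between libraries, held none of the motifs searched.
VCAN promoter: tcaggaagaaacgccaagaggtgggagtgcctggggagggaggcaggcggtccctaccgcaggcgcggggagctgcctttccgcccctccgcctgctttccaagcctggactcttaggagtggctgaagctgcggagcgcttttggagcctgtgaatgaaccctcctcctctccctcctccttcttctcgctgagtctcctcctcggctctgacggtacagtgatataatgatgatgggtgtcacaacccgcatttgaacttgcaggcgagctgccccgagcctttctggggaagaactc

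The 6 contractile and cytoskeletal genes divided, with 2 lower and 2 higher with Raf active in normoxia and 2 lower and 1 higher in hypoxia. ACTA2 (chr10:88935074-88991337) encodes smooth muscle actin, the defining protein of myofibroblasts. It held 15.1, 14.2, 14.1 and 14.9 scaled peaks in Raf-inactive and 7.13, 7.06, 8.54 and 7.96 in Raf-active normoxia. In hypoxia it held 16.6, 15.7, 17.1 and 15.7 without and 9.32, 8.55, 10.9 and 9.39 with active Raf. All Raf-active libraries were below all Raf-inactive ones, with log2 changes of -0.85 ± 0.08 (limma, adjusted p = 1.02e-07) and -0.72 ± 0.08 (adjusted p = 9.19e-07). The ACTA2 locus overlaps 2 other protein-coding loci. With only peaks in no other locus, the falls were -0.30 and -0.18 and passed in neither oxygen state.

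TAGLN (chr11:117199294-117207465) encodes transgelin, an actin-binding protein of smooth muscle and myofibroblasts. It held 4.32, 3.27, 5.41 and 5.32 scaled peaks in Raf-inactive and 5.35, 7.06, 7.59 and 5.31 in Raf-active normoxia. Its hypoxia values were 2.22, 2.23, 2.28 and 2.24 without and 4.66, 3.80, 3.64 and 5.63 with active Raf. The normoxia groups overlapped slightly and the hypoxia groups were apart, at 2 listed peaks in each Raf-inactive library against 4 to 6. This gave a log2 change of 0.40 ± 0.14 (limma, adjusted p = 0.0198) and 0.73 ± 0.14 (adjusted p = 0.000264), and with 50 kb on each side the hypoxia value was 0.06. VIM, the gene of vimentin, was lower in both, by -0.29 and -0.55, and CNN1 (calponin) was higher in normoxia by 0.21. MYL9 and S100A4 were called in neither. The 6 smooth muscle marker loci summed to 103.7 to 116.0 scaled peaks in Raf-inactive and 89.2 to 93.9 in Raf-active normoxia. In hypoxia the sums were 110.9 to 118.6 and 89.2 to 103.5. These loci were mixed: 1 was called higher and 3 lower in normoxia, where 37.1% and 25.9% of all tested loci were. In hypoxia 0 were higher and 2 lower, against 33.5% and 26.6%. The largest called fall in normoxia was at SYNPO2, from a mean of 36.97 to 22.09, while SMTN rose from 8.08 to 12.39.

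Of the 4 fibroblast surface genes, PDGFRB was higher with Raf active in normoxia and FAP lower in hypoxia. PDGFRA and PDGFRB encode the receptors for platelet-derived growth factor. PDGFRB (chr5:150113839-150155845) held 14.0, 11.99, 15.2 and 14.9 scaled peaks in Raf-inactive and 17.8, 18.5, 18.0 and 16.8 in Raf-active normoxia. The hypoxia libraries held 20.0, 19.0, 19.4 and 17.9 without and 16.8, 16.1, 18.2 and 15.96 with active Raf. The Raf-active libraries were above the others in normoxia and overlapped them from below in hypoxia. The log2 change was 0.33 ± 0.08 (limma, adjusted p = 0.00144) in normoxia and -0.18 ± 0.08 (adjusted p = 0.059) in hypoxia.

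FAP (chr2:162170684-162243445) encodes fibroblast activation protein, a surface protease. It held 16.2, 16.4, 14.1 and 13.8 scaled peaks in Raf-inactive and 12.5, 14.1, 15.2 and 15.9 in Raf-active normoxia. At low oxygen the locus held 17.8, 16.8, 19.4 and 20.1 without and 11.2, 10.4, 7.29 and 12.2 with active Raf. The normoxia groups overlapped, and the Raf-active hypoxia libraries lay below all other 12. With Raf active the log2 change was -0.06 ± 0.12 (limma, adjusted p = 0.661) in normoxia and -0.81 ± 0.12 (adjusted p = 2.73e-05) in hypoxia.

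PDGFRA (chr4:54229293-54298245) held 17.3, 16.4, 15.2 and 11.7 scaled peaks in Raf-inactive and 15.2, 19.4, 17.1 and 15.9 in Raf-active normoxia. In hypoxia it held 13.3, 13.4, 11.4 and 13.4 without and 13.1, 14.2, 14.6 and 14.1 with active Raf. Both pairs overlapped, and the log2 changes of 0.16 and 0.11, each ± 0.105, did not pass (limma, adjusted p = 0.199 and 0.373). Among peaks enriched 5-fold or more the hypoxia value was -0.62. The upstream PDGFRA start had a peak in 4 of 4 Raf-inactive normoxia, 3 of 4 Raf-active normoxia and 4 of 4 Raf-inactive hypoxia libraries. It had none in the 4 Raf-active hypoxia libraries. Background pileup ranged from 6.53 to 8.34 in Raf-active hypoxia and from 6.09 to 7.10 in Raf-active normoxia, and its part was not tested. The downstream start had a peak in all 16. The upstream promoter (chr4:54229043-54229342, plus strand) is shown because its weak peak was not listed in every group. Capitals mark its AP-1 match at -32. THY1 was called in no comparison.
PDGFRA upstream promoter: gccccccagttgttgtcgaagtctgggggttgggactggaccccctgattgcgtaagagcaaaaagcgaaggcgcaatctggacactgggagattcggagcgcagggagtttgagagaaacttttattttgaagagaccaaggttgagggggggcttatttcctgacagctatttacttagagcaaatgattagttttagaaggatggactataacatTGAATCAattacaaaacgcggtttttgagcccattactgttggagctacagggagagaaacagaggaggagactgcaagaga

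Among the proteases and their inhibitor, both protease genes were lower and TIMP3 passed in neither oxygen state. MMP14 (chr14:22836585-22847758) encodes a membrane-bound collagenase that activates MMP2. It held 14.0, 9.81, 11.9 and 11.7 scaled peaks in Raf-inactive and 5.35, 5.30, 5.69 and 5.31 in Raf-active normoxia. Its hypoxia values were 12.2, 13.4, 10.3 and 12.3 without and 6.53, 6.65, 5.46 and 6.57 with active Raf. The groups were well apart, with log2 changes of -0.996 ± 0.10 (limma, adjusted p = 1.92e-07) and -0.84 ± 0.10 (adjusted p = 1.77e-06). The hypoxia fall was -0.31 and did not pass among peaks enriched 5-fold or more. MMP2, the gene of gelatinase A, was lower by -0.29 and -0.36.

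TIMP3 (chr22:32801705-32863041), which encodes a matrix-bound inhibitor of these enzymes, held 11.9, 11.99, 7.58 and 12.8 scaled peaks in Raf-inactive and 12.5, 13.2, 12.3 and 9.73 in Raf-active normoxia. The hypoxia libraries held 13.3, 11.2, 7.99 and 12.3 without and 15.8, 13.3, 14.6 and 12.2 with active Raf. Both pairs overlapped, with log2 changes of 0.12 ± 0.16 (limma, adjusted p = 0.522) and 0.31 ± 0.16 (adjusted p = 0.0954). The normoxia value was 0.87 and passed among peaks enriched 5-fold or more, and the hypoxia value was 0.56 and passed unscaled.

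The change with Raf differed between the oxygen states at 8 of 54 members, 7 of them with a lower change in hypoxia (limma interaction term), where 9.16% of all tested loci passed in each direction. The 7 were LUM, FAP, PDGFRB, THBS2, COL1A1, TNC and LTBP2, and COL5A1 was the one in the other direction. The difference was -0.84 ± 0.19 (log2, SE; adjusted p = 0.00671) for LUM, -0.74 ± 0.17 (adjusted p = 0.00746) for FAP and -0.43 ± 0.11 (adjusted p = 0.0123) for TNC. At these loci the Raf-active hypoxia group was the low one. The difference was -0.48 ± 0.12 (adjusted p = 0.011) for THBS2 and -0.50 ± 0.11 (adjusted p = 0.00489) for PDGFRB, where the Raf-inactive normoxia libraries were the lowest of the 4 groups. COL1A1 differed by -0.45 ± 0.15 (adjusted p = 0.0415), LTBP2 by -0.30 ± 0.09 (adjusted p = 0.0301) and COL5A1 by 0.41 ± 0.10 (adjusted p = 0.0122).

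Some of these differences were fragile. The THBS2 difference was -0.20 at matched depth and the COL5A1 difference 0.28, and neither passed. COL1A1 did not pass with 1 library left out in 9 of 16 cases, with values from -0.36 to -0.46: without replicate 1 or 2 of either Raf-inactive group, 3 or 4 of Raf-active normoxia, or 1, 2 or 4 of Raf-active hypoxia. Among peaks enriched 5-fold or more, only 2 of the 7 members with a lower change in hypoxia, COL1A1 and TNC, kept their calls. The sign turned there for PDGFRB (0.17) and COL5A1 (-0.51), and FAP (-0.16) and THBS2 (-0.04) did not pass. LUM and LTBP2 were not called there either. Without Raf-active normoxia replicate 3 or 4, 2 members in place of 1 had the larger change in hypoxia.

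**Figure D4:**
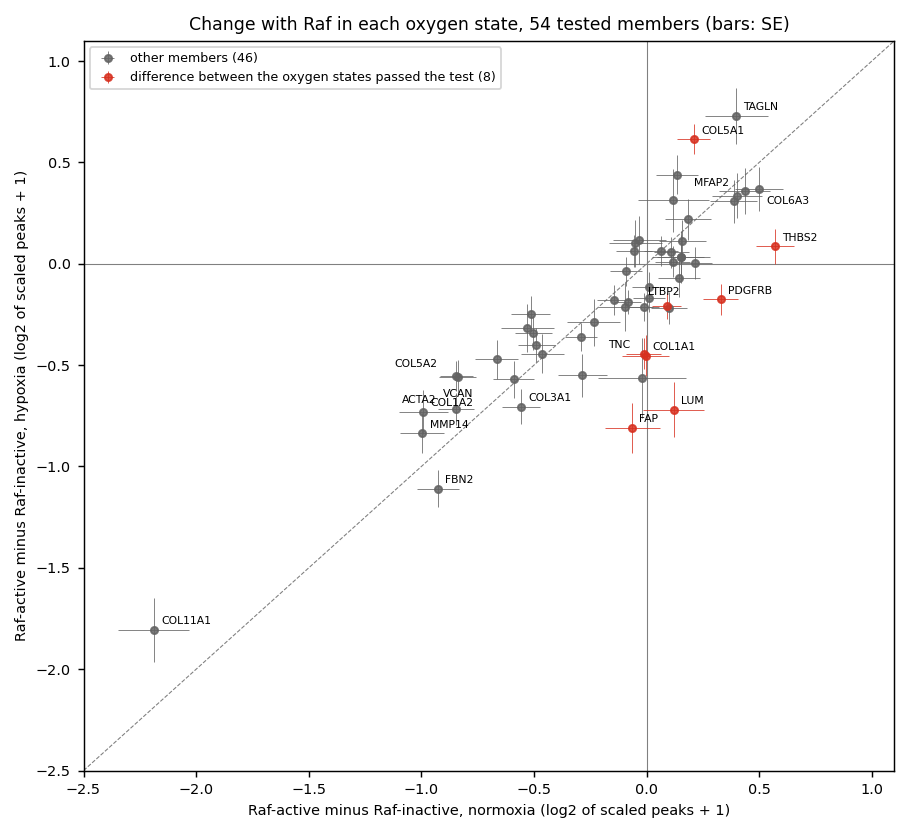
Log2 change with Raf (Raf-active minus Raf-inactive, of scaled peaks + 1) in normoxia (horizontal axis) and hypoxia (vertical axis) for the 54 tested members; bars are SE, the dashed line marks equal change, and red points passed the test of the difference. COL11A1 lies lowest at -2.19 and -1.81, and LUM and FAP lie near 0 in normoxia and at -0.72 and -0.81 in hypoxia.

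Hypoxia alone moved few members. In Raf-inactive cells 5 of 54 were higher and 3 lower in hypoxia, against 6.01% and 6.79% of all tested loci (12.8% in all, with groups apart at 22.9%). COL6A1, COL11A1, THBS2, PDGFRB and S100A4 were higher, and TAGLN, COL16A1 and COL5A1 lower. COL6A1 (chr21:45981770-46005048), the gene of a short chain of collagen VI, held 6.48, 8.72, 5.41 and 5.32 scaled peaks in normoxia and 8.87, 8.94, 11.4 and 8.96 in hypoxia. The hypoxia libraries were above the normoxia ones, by 0.51 ± 0.13 (log2, SE; limma, adjusted p = 0.0154). PDGFRB was higher by 0.42 ± 0.08 (adjusted p = 0.00223), THBS2 by 0.47 ± 0.09 (adjusted p = 0.00214) and S100A4 by 0.33 ± 0.07 (adjusted p = 0.00824). TAGLN, at 2 listed peaks in every hypoxia library, was lower by -0.76 ± 0.14 (adjusted p = 0.00217). COL16A1 and COL5A1 were lower by -0.35 and -0.27.

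At matched depth THBS2 (0.29) and TAGLN (-0.33) did not pass, COL1A1 passed at 0.53, and 4 members were higher and 1 lower. COL11A1, higher by 0.49 ± 0.16 (adjusted p = 0.0492), lost its call without any 1 library except Raf-inactive normoxia replicate 2, with values from 0.42 to 0.54. Without Raf-inactive hypoxia replicate 3 the count was 3 higher and 1 lower, and COL6A1 (0.43), COL5A1 (-0.21) and COL16A1 (-0.31) were not called. COL16A1 was also lost without Raf-inactive normoxia replicate 1 (-0.31) or 4 (-0.31) or Raf-inactive hypoxia replicate 2 (-0.30). PDGFRA passed at -0.31 without Raf-inactive normoxia replicate 4. Among peaks enriched 5-fold or more, 1 of the 5 higher members (S100A4) and 0 of the 3 lower kept their calls.

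In Raf-active cells 9 members were higher and 7 lower in hypoxia, against 13% and 14.1% of all tested loci (27.1% in all, with groups apart at 29.9%). Of the 7 collagen loci lower with Raf in both oxygen states, 3 were higher in hypoxia than in normoxia: COL11A1 by 0.87 ± 0.16 (log2, SE; limma, adjusted p = 0.000615), COL1A2 by 0.40 ± 0.11 (adjusted p = 0.0115) and COL5A2 by 0.29 ± 0.07 (adjusted p = 0.00824). The other 4 did not pass, at 0.01 for COL3A1, 0.12 for COL12A1, -0.03 for COL8A1 and -0.04 for COL14A1. VCAN (0.37), EFEMP1 (0.38), FBLN5 (0.35), ACTA2 (0.28), COL6A1 (0.39) and S100A4 (0.21) were higher as well. These comparisons share their Raf-active normoxia libraries with the Raf comparison above. LUM was lower by -0.79 ± 0.14 (adjusted p = 0.000382), TNC by -0.58 ± 0.08 (adjusted p = 4.7e-05), FAP by -0.47 ± 0.12 (adjusted p = 0.00911) and FN1 by -0.42 ± 0.09 (adjusted p = 0.00345). TAGLN, VIM and LTBP2 were lower by -0.43, -0.30 and -0.25.

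At matched depth 4 members were higher and 8 lower in this comparison, and ACTA2 (0.04), COL6A1 (0.13) and FN1 (-0.36) did not pass. Among peaks enriched 5-fold or more, 1 of the 9 higher members (COL11A1) and 1 of the 7 lower (TNC) kept their calls. Without Raf-active hypoxia replicate 3 the higher count was 5. ACTA2 (0.22), COL6A1 (0.34) and TAGLN (-0.36) lost their calls without that library. COL6A1 was also lost without Raf-active normoxia replicate 1 (0.33) or 2 (0.38) or Raf-active hypoxia replicate 2 (0.40) or 4 (0.37). TAGLN was lost without Raf-active normoxia replicate 2 (-0.38) or 3 (-0.35) or Raf-active hypoxia replicate 2 (-0.38).

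The 16 lists merged into 1276 regions with their midpoint in a member locus and a peak in at least 2 libraries, 399 of which (31.3%) had a peak in all 16, against 26.3% of 299052 regions genome-wide. A region counted as gained when all 4 Raf-active and no Raf-inactive libraries had a peak there, and as lost in the opposite case. In normoxia active Raf came with 160 gained member regions (12.5%) and 123 lost ones (9.64%), where 14.1% and 10.6% of all regions were. In hypoxia 128 (10%) were gained and 119 (9.33%) lost, where 13.8% and 8.82% of all regions were. Across the oxygen states 71 member regions (5.56%) were gained in both and 61 (4.78%) lost in both, where 6.98% and 5.41% of all regions were, and 1 gained in normoxia was lost in hypoxia. With hypoxia in Raf-inactive cells 20 member regions (1.57%) were gained and 31 (2.43%) lost, where 1.5% and 1.59% of all regions were. In Raf-active cells 24 (1.88%) were gained and 47 (3.68%) lost, where 3.69% and 3.06% of all regions were.

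Loci that fell still gained some regions, and the reverse. COL5A2 lost 15 regions and gained 4 in normoxia, FBN1 lost 11 and gained 5, and VCAN lost 7 and gained none. COL5A1 gained 9 and lost 1, COL6A3 gained 9 and lost 2, and LTBP1, with no call in normoxia, gained 17 and lost 7. COL11A1 lost 4 of its 10 regions in each oxygen state, 1 of them in both.

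The gained region with the highest rank in the authors' lists lay inside COL5A1 at chr9:134666800-134667589, 25392 bases from the gene's start, with a peak in all 8 Raf-active and none of the 8 Raf-inactive libraries. A region inside DCN (chr12:91144033-91144532) was likewise open in all 8 Raf-active libraries and no other, although the DCN locus as a whole held fewer peaks. A region inside COL4A2 (chr13:110445036-110445708) was absent only from the 4 Raf-inactive normoxia libraries. Top regions gained in hypoxia also lay inside COL4A1 (chr13:110304183-110304664) and 6218 bases outside LTBP2 (chr14:74618021-74618889), both open in all 8 Raf-active libraries alone.

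Of the lost regions, those inside MFAP5 (chr12:8658134-8658808), VCAN (chr5:83475514-83475867, 3947 bases from the start) and FBN2 (chr5:128470550-128471290) had a peak in all 8 Raf-inactive and none of the 8 Raf-active libraries. Other regions were lost in normoxia and partly open with Raf in hypoxia. One inside FBN1 (chr15:48439916-48440770) had a peak in 2 of 4 Raf-active hypoxia libraries, one inside COL8A1 (chr3:99782980-99783458) in 1 and one inside LTBP1 (chr2:33000753-33001717) in 3, each with a peak in all 8 Raf-inactive libraries and in no Raf-active normoxia library.

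Starts of member genes mostly had a peak in every library. RefSeq promoter windows were matched for 36 of the 56 members, 44 windows in all, and 38 of them had a peak within 500 bases of the start in all 16 libraries. The start of POSTN and a second start of FBLN2 had none in any library. The other 4 were the starts of COL11A1 and VCAN, the upstream start of PDGFRA and a second MFAP2 start, which had a peak in 1 of 4 Raf-inactive normoxia libraries and in all 12 others. In the Raf-active libraries the peak at this second start was the one at the upstream MFAP2 start. Its mean length was 908 bases in normoxia and 900 in hypoxia, so it reached both windows. The other 20 members, COL1A1, COL1A2 and COL3A1 among them, were not matched. Presence did not mean an unchanged peak. Ranked by −log10 p within each list, some starts had a lower mean percentile with Raf in normoxia. It went from 71.9 to 25.2 at CNN1, 90.8 to 48.6 at TIMP3 and 84.3 to 63.2 at COL4A1 and COL4A2. At COL6A3 and PDGFRB, called higher by peak number like CNN1, it went from 89.8 to 73.6 and from 89.4 to 73.7. Others ranked higher, such as the upstream MFAP2 start, from 86.1 to 98.6. These ranks were not tested.

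Motifs were searched on both strands of the 300-base windows, and matches of different motifs did not overlap in the sequences printed. The AP-1 motif TGANTCA was in 3 of the 44 member windows and in 6.15% of 22132 windows of protein-coding genes. The TEAD motif GGAATG was in 7 and in 12.2% of all, the RUNX motif TGTGGTT in 2 and in 3.7%, the core hypoxia response element ACGTG in 11 and in 23.1%, and the CArG box, bound by serum response factor, in none and in 1.25%. TEAD matches lay in the windows of CCN2, THBS2, THBS1, SPARC, FBN1, COL12A1 and the second start of ACTA2. A match is a match of letters and does not show binding. Only exact matches were counted, so sites that differ in any letter were missed, and members without a window were not searched. The lack of a match therefore does not show that a factor has no site there.

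The median change was lower for members in long genes. Of the members with the largest falls in normoxia, COL11A1, FBN2, COL5A2 and VCAN are genes over 100 kb. MMP14, COL1A2 and ACTA2 are shorter. The 15 tested members with a gene over 100 kb had a median log2 change with Raf of -0.46 in normoxia and -0.34 in hypoxia, and the 39 shorter ones 0.01 and -0.07. The medians over all tested loci were -0.27 and -0.20 for 3076 long genes and 0.16 and 0.10 for 12042 shorter ones. Across genes, Spearman's rho of the change in normoxia with gene length was -0.30 over the 54 members and -0.27 over all tested loci, given as a description since genes of 1 library set share depth and are not independent. The part of gene length in the member values was not tested.

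Genes that act on or with the members are given by their counts, to be read against the shares of all tested loci with Raf, 37.1% higher and 25.9% lower in normoxia and 33.5% and 26.6% in hypoxia. Of 25 genes of collagen processing enzymes, 10 were higher and 8 lower with Raf in normoxia, and 13 higher and 5 lower in hypoxia. PLOD3, a collagen lysyl hydroxylase, was higher by 1.31 and 0.91, and ADAMTS3, a procollagen protease, lower by -2.05 and -1.58. P4HA1, a collagen prolyl hydroxylase, was higher in hypoxia than in normoxia in Raf-active cells, from a mean of 6.08 to 8.86 scaled peaks (0.48). Of 17 integrin genes, the receptors for this matrix, 7 were higher and 5 lower in normoxia, and 3 higher and 4 lower in hypoxia. ITGAV was lower in both, by -1.22 and -1.52. ITGB1, the shared beta chain of collagen and fibronectin receptors, was higher with Raf in normoxia by 1.06, and the change in hypoxia minus that in normoxia was -0.97 ± 0.14 (limma, adjusted p = 0.000324).

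Of 33 tested genes of TGF-beta and YAP/TEAD signalling, 11 were higher and 9 lower in normoxia, and 7 higher and 9 lower in hypoxia. SKIL, a brake on SMAD proteins, was highest with Raf in normoxia (1.30), and AMOTL1, a partner of YAP, lowest in hypoxia (-0.72). Laminins and other basement membrane genes gave 6 higher and 8 lower of 21 in normoxia and 7 higher and 5 lower in hypoxia. COL4A3, a collagen IV gene of specialised basement membranes, was lower by -2.56 and -1.58. Other matrix proteases and inhibitors gave 6 higher and 6 lower of 21, then 6 higher and 4 lower. MMP9 was the most raised in normoxia (0.62), and the aggrecanase genes ADAMTS9 in normoxia (-1.21) and ADAMTS5 in hypoxia (-1.22) the most lowered.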

How the data were processed

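ATAC-seq was done on 16 libraries of IMR90 cells, 4 in each of 4 groups. Peaks were called on hg38; MACS2, Bowtie2, cutadapt, Picard, SAMtools, bedtools, FastQC and deepTools are named in the submitters' processing notes, and their versions and settings are not given in the sources used here. The deposited lists give 1 library each, with a score, a fold enrichment over background, a −log10 p-value and a −log10 q-value per peak, as the authors' peak caller wrote them. Fold, −log10 p and −log10 q were used only to filter, rank and thin peaks within a list, and the deposited score was not used for any result. The lists hold no read counts, so no count model was run.

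Lines with the same start and end were counted as 1 distinct peak. Peaks with their summit in a gene body with 10 kb on each side (RefSeq genes, GRCh38.p14) were counted, scaled to the mean library total over protein-coding loci, and tested as log2(scaled peaks + 1), with limma 3.58.1 in R 4.3.3. The fit used all 16 libraries and loci with a mean of at least 3 scaled peaks, with Benjamini-Hochberg adjustment over all tested loci and a threshold of 0.05. Fold changes are on that log2 scale, which understates changes at low values. Other steps ran in Python 3.11.15 with pandas 2.3.3, scipy 1.17.1 and matplotlib 3.10.9. The fit was tested on simulated data with known changes. Pileups recomputed from fold matched the listed −log10 p within 0.05 for 89.0% to 98.6% of peaks per library.

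The members and lists were chosen with earlier results of these data known. Values in every library are given for the members with the largest called rises and falls, up to 4 in each direction of a comparison, and for COL1A1, COL1A2, COL3A1, FN1, ACTA2, CCN2, TIMP3, THBS1 and PDGFRA whatever their call. Other lists give counts and at most 1 largest rise and fall per comparison. Regions named are the 3 gained and 3 lost per Raf comparison with the highest mean rank by −log10 p. A genome sequence was not used here, so promoter sequences from RefSeq are printed in place of sequences of these regions. The promoters printed were chosen after their peaks and motif matches were seen. Alternatives were other scalings, peak thresholds, locus sizes, filters, pseudocounts and fits, and leaving out each library.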

Additional observations from a re-analysis of the deposited data

Results flagged for a closer look

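Among 100 groups of 4 libraries of the members given by library, 14 held a library far from the other 3, and chance alone flags about 1 in 20 such groups. Many of these groups differ by 1 listed peak. CCN2 had its highest Raf-inactive normoxia value in replicate 1 (7.56 scaled peaks), its highest Raf-active normoxia value in replicate 3 (4.74) and its lowest Raf-active hypoxia value in replicate 2 (3.80). Raf-active normoxia replicate 3 was also highest for COL11A1 (0.949) and MMP14 (5.69), where all 4 libraries held the same number of listed peaks. Raf-inactive normoxia replicate 1 was highest for THBS1 (7.56) and lowest for THBS2 (5.40), and replicate 4 was highest for MFAP2 (5.32). Raf-inactive hypoxia replicate 3 was highest for COL6A1 (11.4) and lowest for PDGFRA (11.4) and TNC (18.3), and replicate 1 was highest for EFEMP2 (7.76). In Raf-active hypoxia, replicate 1 was lowest for FBN2 (8.39) and replicate 3 for MMP14 (5.46).

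The change with Raf differed between hypoxia and normoxia by the interaction term of limma at 8 members. The change in hypoxia minus that in normoxia was -0.84 for LUM, -0.74 for FAP, -0.50 for PDGFRB, -0.48 for THBS2, -0.45 for COL1A1, -0.43 for TNC, -0.30 for LTBP2 and 0.41 for COL5A1 on the log2 scale.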

How the results depend on the processing

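Of 1715 values of named members under other settings, 1529 kept their direction and side of the threshold, 121 no longer passed, 41 newly passed and 24 turned. The values that turned with peaks of at least 5-fold enrichment were, with Raf in normoxia, COL1A1 0.39, COL6A3 -0.40, COL3A1 0.33 and CCN2 0.10; with Raf in hypoxia, COL6A3 -0.73, CCN2 0.18 and PDGFRA -0.62; with hypoxia in Raf-inactive cells, COL5A1 0.23 and PDGFRB -0.19; with hypoxia in Raf-active cells, FAP 0.008, COL3A1 -0.27 and TIMP3 -0.45; and for the interaction, PDGFRB 0.17, COL5A1 -0.51 and TIMP3 -0.87. COL1A1 with Raf in normoxia also turned unscaled (0.23), with a −log10 q minimum of 5 (0.33), at equal list length (0.38) and at matched depth (0.30). COL3A1 with hypoxia in Raf-active cells turned at matched depth (-0.27), THBS1 in the gene body alone (0.52, Raf in normoxia) and by base pairs covered (-0.23, hypoxia in Raf-inactive cells), and with 50 kb FN1 (-0.27, Raf in normoxia) and COL6A1 (-0.011, hypoxia in Raf-active cells). The cause was not tested.

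Of 256 counts, 199 stayed within 1.5 times. The shares of all tested loci or regions under these other settings are not given, so the member counts below have no background beside them. Members higher with Raf in normoxia, 9 as reported, were 29 unscaled, 14 at 5-fold (3 of the same 9 among them), 16 at equal list length, 14 at matched depth and 14 by base pairs; those lower, 17, were 27 with 50 kb. In hypoxia the 7 higher were 20 unscaled, 11 at equal length, 11 by base pairs, 4 in the gene body and 4 with peaks in no other locus; the 29 lower were 14 unscaled, 17 at 5-fold and 16 in the gene body. With hypoxia in Raf-inactive cells, the 5 higher were 9 by base pairs, 10 with 50 kb, 3 with peaks in no other locus and 3 in a fit on 8 libraries. The 3 lower were 1 at 5-fold (0 of the same 3 among them), 1 at matched depth, 5 by base pairs, 0 in the gene body, 1 with peaks in no other locus and 1 in a fit on 8 libraries. With hypoxia in Raf-active cells, the 9 higher were 3 at 5-fold (1 of the same 9 among them), 4 at equal length and 4 at matched depth. The 7 lower were 12 at 5-fold (1 of the same 7 among them), 14 by base pairs and 11 with 50 kb. For the interaction, the 1 higher was 2 unscaled, 0 at 5-fold, 2 at equal length, 2 by base pairs, 0 in the gene body, 6 with 50 kb and 2 without a filter. Its 7 lower were 12 at 5-fold (2 of the same 7 among them) and 11 by base pairs. With 1 library left out, the counts ranged from 3 to 5 higher and 1 to 3 lower (hypoxia in Raf-inactive cells), 5 to 9 higher (in Raf-active cells) and 1 to 2 higher (interaction). Regions by 3 of 4 against at most 1 of 4 libraries were 248 gained and 193 lost with Raf in normoxia, 201 and 185 in hypoxia, and 60 and 76, then 64 and 112, with hypoxia in Raf-inactive and Raf-active cells. At 5-fold, 78 were gained with Raf in hypoxia, 7 lost in Raf-inactive cells, and 12 gained and 25 lost in Raf-active cells with hypoxia, where matched depth gave 13 gained.

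Same-numbered libraries did not deviate together (correlations -0.0387 to 0.014), so the numbers do not pair them. With the replicate block, 9 members were higher and 17 lower with Raf in normoxia, 7 and 27 in hypoxia, 4 and 3 with hypoxia in Raf-inactive cells, 8 and 7 in Raf-active cells, and 1 and 5 for the interaction. Read totals are not in the lists, so counting error per peak is unknown.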
